A study of Mus musculus with 48 samples.

Results

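The data described here are the lung transcriptomes of 6 XXF mice collected on postnatal day 21 (P21), chosen by their labels from the 48 lungs of the series: 3 animals exposed to hyperoxia as neonates and then returned to room air (animals 49, 51 and 52), and 3 kept in room air (RA; animals 34, 35 and 36). XXF animals carry 2 X chromosomes and ovaries. They belong to the FCG mouse model on the C57BL/6J background, in which the testis-determining gene Sry has been lost from the Y chromosome and placed on an autosome as a transgene, so that gonads and sex chromosomes segregate independently; XXF animals inherit no Sry transgene and correspond to ordinary females. Exposure was to 95% oxygen from day 1, ending on day 5 by the text of the series and on day 4 by the study's methods. The other 18 P21 lungs, used below only for comparison, came from XXM mice (XX with testes), XYF mice (XY with ovaries) and XYM mice (XY with testes), with 3 exposed and 3 RA animals of each genotype, and 6 further XXF lungs (3 exposed, 3 RA) carry the age P5 in their labels. The study's methods place that early collection at day 5, and the text of the series places it at day 7, so that the interval since exposure ended is uncertain. Whole lungs were used, so that fewer cells of a type and less RNA per cell cannot be told apart. The labels give neither litter, cage nor hour of collection. Animals are numbered as separate lungs, and p-values measure the spread between them.

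Neonatal hyperoxia in mice is used as a model of bronchopulmonary dysplasia, the chronic lung disease of infants born preterm. In mice the exposure falls in the saccular stage of lung development. Septa divide the saccules into alveoli after it, a process that needs proliferation of endothelial cells, fibroblasts and epithelium and that slows toward weaning. Growing lung cells express a shared set of cell cycle genes, in which the S phase genes copy DNA and the mitotic genes build the spindle, attach chromosomes to it and split the cell.

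Each of the 6 libraries held between 9403334 and 27127178 counts assigned to genes. The labels of animal 34 conflict: the title places it at day 21, the age field at day 5 and the name of its data column at day 1. Its expression was placed on an axis of 5186 genes that differed between the P5 and P21 RA lungs of the other 3 genotypes, scaled so that the mean of those P5 lungs was 0 and that of those P21 lungs was 1. Animal 34 stood at 0.883, between its group mates at 0.932 (animal 35) and 0.865 (animal 36), and far from the P5 XXF lungs kept in RA, which reached 0.054 at most. The exposed animals stood at 0.950, 0.856 and 0.858. Y-linked genes were near 0 in all 6 lungs, with a summed level of 4 genes of at most 0.327 CPM (counts scaled to library size). Lung identity was plain, with 12 markers of alveolar type 2 cells summing to between 30176 and 33426 CPM. Animal 51 stood apart in 1 respect. Its summed level of liver markers was 6130 CPM against 12.2 to 28.7 CPM in the other 5 lungs, so the counts of called genes and the genes named from the lists were also computed without it.

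A gene was called when edgeR's quasi-likelihood test gave a Benjamini-Hochberg adjusted p under 0.05 over the 17937 genes tested and the difference was at least 1.5-fold. By this rule 364 genes were lower and 224 were higher in exposed than in RA XXF lungs, which is 2.03% and 1.25% of the genes tested. The 3 exposed and 3 RA values did not overlap for 361 of the genes called lower and for 189 of those called higher, whereas over all tested genes 14.4% were separated downward and 13.6% upward. Without animal 51, 150 of the genes called lower and 55 of those called higher were still called, where that fit called 0.831% and 0.333% of its genes. Without animals 34 and 51 together 59 and 8 were, with 0.327% and 0.0443% called. DESeq2 called 442 genes lower and 279 higher with all animals, or 2.46% and 1.55%. The median log2 fold change over all tested genes was -0.00066.

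Most mitotic genes fell in the exposed XXF lungs. Of 65 measured members of the mitosis list, 60 were called lower and none higher, with a list median of -2.08 on the log2 scale, against a background of 2.03% of genes called lower. The values of all 65 were separated downward between the groups, against 14.4% of all tested genes. Their summed level was 1456, 1463 and 1391 CPM in RA animals 34, 35 and 36 and 490, 465 and 518 CPM in exposed animals 49, 51 and 52. The count was 50 of 65 without animal 51 and 29 of 65 without animals 34 and 51, with a median of -1.97 in the former.

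Mki67, which encodes the proliferation marker Ki-67 (chr7:135689784-135716361, GRCm38), read 114, 115 and 117 CPM in the RA lungs and 24.7, 22.8 and 32.8 CPM in the exposed lungs. The fall was 4.32-fold (log2 fold change -2.11, SE 0.29, edgeR adjusted p = 0.00037). Top2a, the topoisomerase that untangles sister chromosomes, read 87.1, 89.9 and 83.4 CPM in RA and 16.3, 15.0 and 18.7 CPM after exposure, a 5.22-fold fall. In both genes each group was tight and the groups were far apart.

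The condensin subunit Ncapd2 and the cytokinesis regulator Racgap1 had log2 fold changes of -1.48 and -2.12. The 10 largest falls that held without animal 51 were those of Pimreg, Iqgap3, Cep55, Mxd3, Cenpf, Hmmr, Ska1, Pif1, Troap and Kif18b, from -3.45 for Pimreg to -2.83 for Kif18b. Iqgap3, a scaffold protein of dividing cells, read 26, 24.6 and 24.4 CPM in RA and 2.25, 2.26 and 2.49 CPM after exposure, a 10.7-fold fall. Cenpf, a kinetochore protein, read 35.2, 34.5 and 35.3 CPM against 3.82, 3.24 and 5.47 CPM. Hmmr, a spindle-associated protein, read 15.2, 13.3 and 12.9 CPM against 1.50, 1.89 and 1.66 CPM. Each of these 10 genes was called in all 6 fits that left out 1 XXF animal. The 5 members of the mitosis list that were not called were Bub3 (log2 fold change -0.08), Spc25, Ncaph, Smc4 and Mybl2, the last 4 between -0.76 and -0.45.

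Genes of DNA replication moved less. Of 49 measured members 18 were called lower and none higher, against 2.03% of all tested genes called lower, with a median log2 fold change of -0.66. Mcm5, a subunit of the helicase that opens replication origins, read 30, 27.7 and 24.8 CPM in RA and 11.3, 11.7 and 10.5 CPM after exposure (log2 fold change -1.30, SE 0.21, edgeR adjusted p = 0.0015). Mcm2 of the same complex fell by 0.93 on the log2 scale, while Mcm3 (-0.66) and the ligase Lig1 (-0.61) were called with all animals but not without animal 51. The count of called members was 8 without animal 51 and 0 without animals 34 and 51, where 0.831% and 0.327% of all genes were called lower. Cyclin D1 (Ccnd1), Lmnb1 and Incenp, chosen here after their values were seen, also fell, Ccnd1 from 151, 118 and 151 CPM to 63.5, 67.8 and 75.3 CPM.

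**Figure D1:**
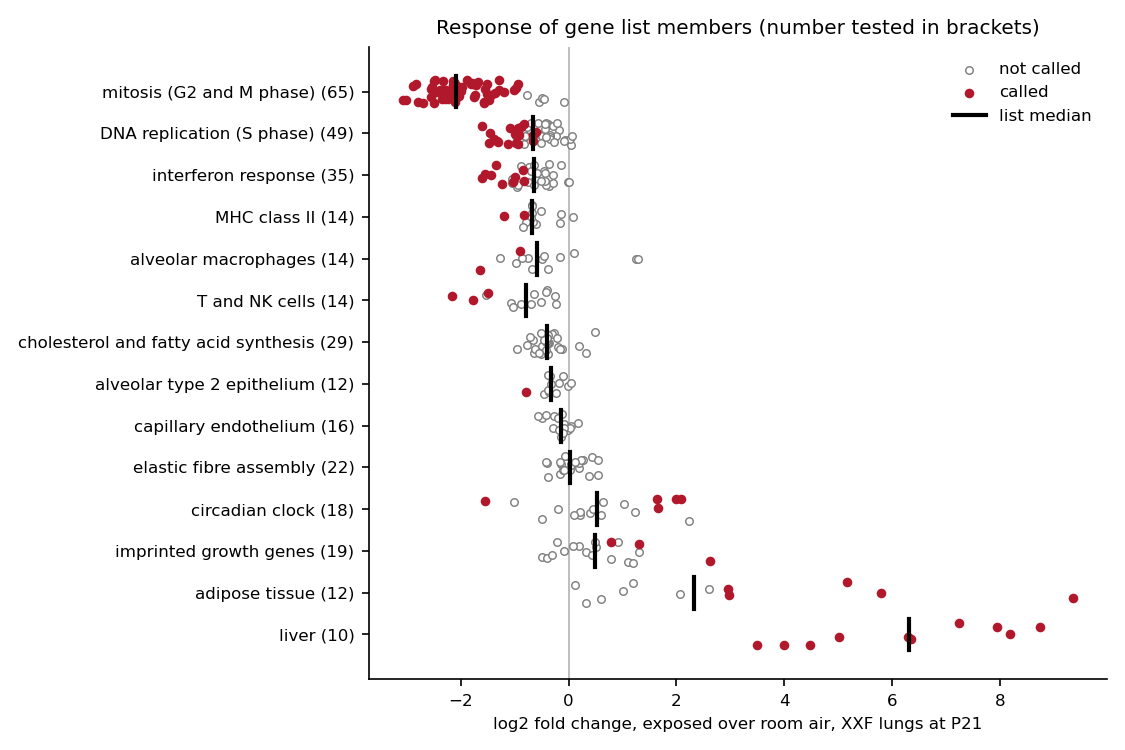
Log2 fold change of every tested member of 14 gene lists, exposed over room air, in XXF lungs at P21; each point is a gene, filled where it was called, and the bar is the list median. The mitosis list lies furthest to the left with a median of -2.08, and the liver list, whose members were high in animal 51 alone, furthest to the right.

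The RA side of this comparison differed between genotypes. At P21 the summed mitotic level of the 9 exposed lungs of the other genotypes lay between 403 and 473 CPM, a range that overlapped with the exposed XXF lungs at its upper end. The 6 RA lungs of XYF and XYM mice lay between 467 and 638 CPM, and so near the exposed XXF lungs and well under the RA XXF lungs. Of the 3 RA lungs of XXM mice, 2 were as high as RA XXF lungs (1398 CPM in animal 37 and 1417 CPM in animal 40), and the third, animal 39, read 542 CPM.

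A comparison added after the data were seen used the RA lungs of XYF and XYM mice as controls in place of the RA XXF lungs. In it 0 of 65 mitotic genes were called in exposed XXF lungs, where 0.574% of all tested genes were called in each direction. The median log2 difference was -0.33, and 1 member had an unadjusted edgeR p under 0.05, against 2493 of the 17937 tested genes. RA XXF lungs compared with the same XY controls had 60 of 65 mitotic genes called higher, with a median of 1.70, where 1.09% of all tested genes were called higher. These comparisons share lungs with each other and with the response above. Within each of the other genotypes the median mitotic log2 response was -1.81 in XXM, -0.62 in XYF and -0.55 in XYM, with 56, 0 and 0 members called lower by edgeR and 63, 29 and 13 members at an unadjusted p under 0.05. Over all tested genes the shares at an unadjusted p under 0.05 were 10.7%, 10.1% and 8.19%. In XXM lungs 1.4% of all tested genes were called lower and 0.0781% higher. When the XXF response was set directly against the mean response of the other 3 genotypes, the median difference for the mitosis list was -1.02 and no member was called, although 55 of 65 had an unadjusted p under 0.05, against 7.74% of all tested genes. Against the XXM response alone the median difference was -0.16 and no member was called by edgeR or had an unadjusted p under 0.05, where 8.35% of all tested genes did.

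At P5 the summed mitotic level was 3956, 4352 and 4582 CPM in RA XXF lungs and 2576, 3030 and 3093 CPM in exposed XXF lungs, on a scale set separately for that age. There 17 of 65 members were called lower, against 0.752% of all genes tested at P5, with a median log2 fold change of -0.58. Of the 340 genes called lower at P21 and measured at P5, 31 were also called lower at P5 (9.12%), and they were 23.5% of the 132 genes called lower at P5 and tested at P21. For the genes called higher, 3 of 209 were shared (1.44% of those at P21 and 2.13% of the 141 at P5), where 0.798% of genes tested at P5 were called higher. Others were called in the opposite direction at P5. Of the 340 genes called lower at P21, 11 were called higher at P5, against the same 0.798%. Of the 209 called higher at P21, 5 were called lower at P5, against 0.752% of genes tested there.

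**Figure D2:**
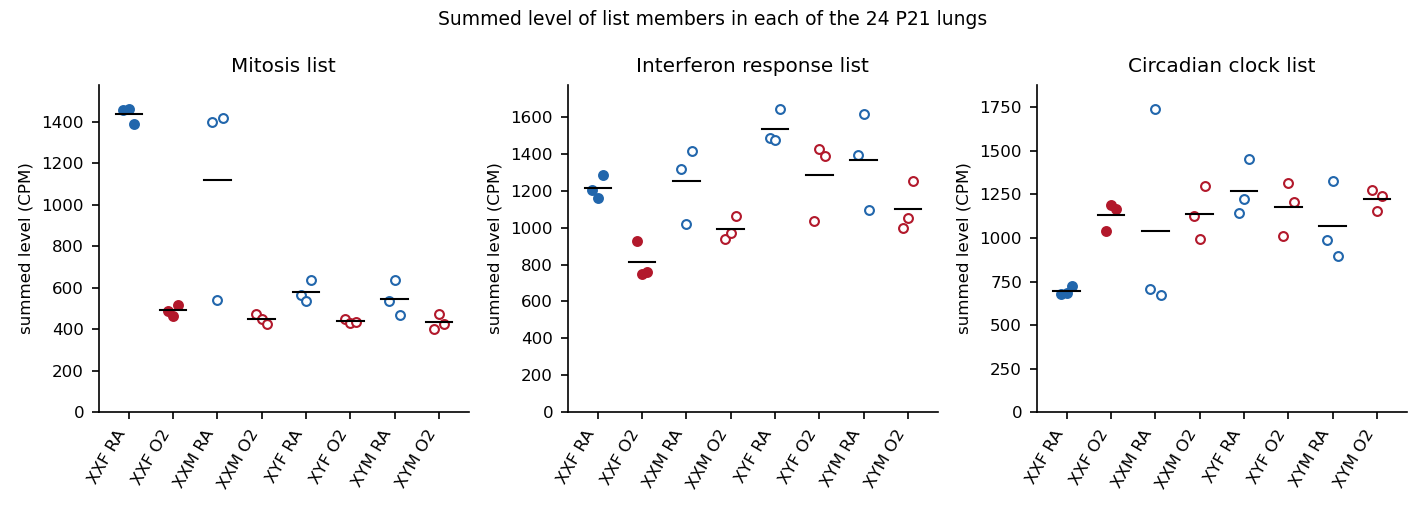
Summed level, in CPM, of the mitosis, interferon response and circadian clock lists in each of the 24 P21 lungs; points are lungs (blue room air, red hyperoxia, filled for XXF) and bars are group means of 3. In the mitosis panel the 3 RA XXF lungs and 2 of 3 RA XXM lungs read from 1391 to 1463 CPM and every other lung from 403 to 638 CPM.

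Because the mitotic genes moved together, the 250 bases upstream of their RefSeq start sites (GRCm38.p6) are shown for the 4 called members with the highest level. They were searched for the letters of 2 elements known from promoters of late cell cycle genes, and capitals mark the cell cycle homology region (CHR, TTTGAA) and the CCAAT box (CCAAT), each on either strand.
Mki67, chr7:135716380-135716629, minus strand: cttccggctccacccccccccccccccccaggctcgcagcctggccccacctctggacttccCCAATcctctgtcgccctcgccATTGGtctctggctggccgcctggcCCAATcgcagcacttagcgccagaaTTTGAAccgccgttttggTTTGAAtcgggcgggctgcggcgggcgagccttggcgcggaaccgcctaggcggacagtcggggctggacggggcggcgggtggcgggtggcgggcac
Top2a, chr11:99024190-99024439, minus strand: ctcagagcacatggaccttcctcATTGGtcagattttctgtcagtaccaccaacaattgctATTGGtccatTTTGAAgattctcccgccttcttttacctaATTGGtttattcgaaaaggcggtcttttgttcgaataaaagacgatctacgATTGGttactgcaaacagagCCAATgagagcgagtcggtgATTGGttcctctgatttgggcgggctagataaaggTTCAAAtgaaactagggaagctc
Ncapd2, chr6:125191587-125191836, minus strand: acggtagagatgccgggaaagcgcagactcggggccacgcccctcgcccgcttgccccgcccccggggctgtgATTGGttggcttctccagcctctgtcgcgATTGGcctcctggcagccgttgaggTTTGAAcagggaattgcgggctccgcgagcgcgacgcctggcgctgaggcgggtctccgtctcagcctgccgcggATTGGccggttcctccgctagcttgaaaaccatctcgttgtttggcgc
Racgap1, chr15:99651657-99651906, minus strand: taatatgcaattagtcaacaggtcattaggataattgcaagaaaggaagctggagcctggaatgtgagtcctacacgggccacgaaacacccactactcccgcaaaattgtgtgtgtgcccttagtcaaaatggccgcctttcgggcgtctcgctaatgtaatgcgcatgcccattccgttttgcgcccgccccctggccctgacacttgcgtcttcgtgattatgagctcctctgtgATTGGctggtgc

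Mki67 and Top2a each held 2 CHR matches in this window, Ncapd2 held 1, and Racgap1 held none. CCAAT matches numbered 3 in Mki67, 6 in Top2a, 3 in Ncapd2 and 1 in Racgap1. Of the 53 members of the mitosis list with a matched promoter, 16 held both motifs (30.2%), against 4.98% of the 12732 tested genes with a matched promoter. For the CHR alone the shares were 37.7% and 13.5%, and for the CCAAT box alone 66% and 39.1%. Among the 39 DNA replication genes with a matched promoter, 7 held an E2F site (TTTCCCGC or TTTGGCGC, either strand), a share of 17.9% against 2.54% of tested genes. Such a match describes letters in a window and is not a site of binding.

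Among interferon-stimulated genes, the antiviral set switched on by interferon, 9 of 35 measured members were called lower and none higher, against 2.03% of all tested genes called lower. The median log2 fold change was -0.64, and the values of 31 members were separated downward, against 14.4% of all tested genes. The summed level was 1201, 1159 and 1283 CPM in RA lungs and 929, 749 and 760 CPM in exposed lungs. Isg15, a ubiquitin-like modifier, read 30, 29.2 and 30.6 CPM in RA and 21.6, 11.7 and 11.1 CPM after exposure (log2 fold change -1.03, SE 0.21, edgeR adjusted p = 0.0084). Irf7, the transcription factor that amplifies interferon production, fell by 0.84 on the log2 scale, Rtp4 by 0.99 and Ifi27l2a by 1.44. In Isg15, Irf7 and Ifi27l2a exposed animal 49 lay closer to the RA lungs than animals 51 and 52 did. Without animal 51, 1 member (Oas1a, an RNA sensor) was still called, where 0.831% of all genes in that fit were called lower.

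The control group was changed for the interferon genes as well. Against the RA lungs of XYF and XYM mice 23 of 35 were called lower in exposed XXF lungs, where 0.574% of all tested genes were, with a median of -1.06. RA XXF lungs against the same XY controls had a median of -0.21, with 2 of 35 called lower (0.312% of all tested genes). An unadjusted edgeR p under 0.05 was found for 11 of the 35, against 2536 of the 17937 tested genes. Part of the difference from the XY controls was thus present between the RA lungs. The exposed XXF lungs, at 749 to 929 CPM, lay under the 9 exposed lungs of the other genotypes, at 937 to 1424 CPM. The difference between the XXF response and the mean response of the other genotypes had a median of -0.33 and no called member. In that test 6 of 35 had an unadjusted edgeR p under 0.05, against 7.74% of all tested genes.

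A few genes of antigen presentation fell. Ciita, the master regulator of MHC class II (chr16:10480059-10528418), read 19.4, 18.5 and 22.1 CPM in RA and 10.9, 7.13 and 8.03 CPM after exposure (log2 fold change -1.21, SE 0.18, edgeR adjusted p = 0.0006), and stayed called without animals 34 and 51. Over all 4 genotypes Ciita ran from 15.8 to 23.6 CPM in the 12 RA lungs and from 7.13 to 14.7 CPM in the 12 exposed lungs, with no overlap. The invariant chain Cd74 read 880, 965 and 921 CPM in RA and 636, 460 and 461 CPM after exposure and lost its call without animal 51. These were the 2 called members of 14 in the MHC class II list, where 2.03% of all tested genes were called lower. The list median was -0.67, and its summed level was 2043 to 2190 CPM in RA and 1109 to 1587 CPM in exposed lungs.

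Among MHC class I genes, singled out after their values were seen, B2m, the light chain shared by class I molecules, read 757, 742 and 763 CPM in RA and 443, 405 and 358 CPM after exposure (log2 fold change -0.91, edgeR adjusted p = 0.0013), and stayed called in all 6 fits that left out 1 animal. H2-Q6 and H2-Q7 fell by 2.35 and 2.19 on the log2 scale, but they are near-identical copies among which the counting could have divided reads, so their separate values are uncertain. The class I heavy chains H2-K1 (-0.70) and H2-D1 (-0.60) lost their call without animal 51.

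A few immune cell markers fell, against a background of 2.03% of all tested genes called lower. In the alveolar macrophage list, Itgax (CD11c) read 31.2, 28.3 and 33.5 CPM in RA and 18.4, 14.3 and 17 CPM after exposure, and Krt79 read 11.5, 10.8 and 11.1 CPM against 4.42, 2.69 and 3.67 CPM. These were the 2 called members of 14, and the median of the list was -0.59. The summed level was 618 to 665 CPM in RA lungs and 341 to 444 CPM in exposed lungs. Neither gene was called without animal 51. The natural killer cell genes Gzma, Klrb1c and Ncr1 were the 3 called members of the 14 T and NK cell markers (median -0.79), with Gzma at 11.6, 10.6 and 11.5 CPM in RA and 4.35, 1.20 and 2.29 CPM after exposure. None of the 3 was called without animal 51. Against the RA lungs of XYF and XYM mice, no T and NK cell marker was called in exposed XXF lungs. There 0.574% of all tested genes were called in each direction. The list median was -0.02, but 6 of 14 markers had an unadjusted edgeR p under 0.05, against 2493 of the 17937 tested genes. RA XXF lungs against the same XY controls had 2 of 14 called higher, where 1.09% of all tested genes were, and a median of 0.69.

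Some genes of the body clock rose. Of 18 measured members of the clock list, 4 were called higher (Nr1d2, Per3, Per2 and Hlf), against 1.25% of all tested genes, and 1 lower (Npas2, a partner of Bmal1). Nr1d2, which encodes the repressor Rev-erb beta, read 33.3, 37.6 and 36 CPM in RA and 101, 114 and 117 CPM after exposure, a 3.10-fold rise (log2 fold change 1.63, SE 0.36, edgeR adjusted p = 0.014). Per3 read 27.3, 23.5 and 25.8 CPM against 80.5, 84.1 and 77.2 CPM, and Hlf, a transcription factor driven by the clock, read 8.38, 7.98 and 7.54 CPM against 32.4, 39.3 and 29.4 CPM. In all 3 genes the exposed lungs were above every RA XXF lung. Arntl, which encodes Bmal1, ran the other way, at 41.4, 41.4 and 43.7 CPM in RA and 19.8, 22.4 and 20.2 CPM after exposure, without passing the test (edgeR adjusted p = 0.13).

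The RA XXF lungs and 2 RA XXM lungs had the lowest clock levels among the P21 lungs. The summed level of the list was 681 to 725 CPM in RA XXF lungs and 1037 to 1189 CPM in exposed XXF lungs. It was 706 CPM in XXM animal 37 and 672 CPM in XXM animal 40, which also had high mitotic levels, 1741 CPM in XXM animal 39, 899 to 1451 CPM in the 6 XY lungs kept in RA, and 995 to 1317 CPM in the 9 other exposed lungs. With XY lungs kept in RA as controls, no clock gene was called in exposed XXF lungs. Of the 18, 1 had an unadjusted edgeR p under 0.05, against 2493 of the 17937 tested genes. The count of members called higher was 2 without animal 51 and 0 without animal 34. Collection times are not given in the labels, and their part in the clock and mitotic values was not tested.

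Per3, 1 of the 4 clock genes called higher, carried 2 matches to the D-box (TTATGTAA, either strand), the letters recognised by Hlf and its relatives. They lie in the 250 bases upstream of its start and are in capitals. The window of Per3 is printed because it held these matches.
Per3, chr4:151044666-151044915, minus strand: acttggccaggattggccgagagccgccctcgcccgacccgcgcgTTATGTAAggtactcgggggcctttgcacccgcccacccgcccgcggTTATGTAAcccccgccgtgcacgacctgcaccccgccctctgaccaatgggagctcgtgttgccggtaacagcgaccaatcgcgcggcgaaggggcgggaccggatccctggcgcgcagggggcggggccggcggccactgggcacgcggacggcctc
Per3 was the only one of 15 clock genes with a matched promoter to hold a D-box there, and 0.699% of tested genes did. The E-box (CACGTG), the letters bound by Bmal1 and its partners, was in 5 of the 15 (33.3%) and in 9.03% of tested genes. Among the clock genes called higher, Nr1d2, Per3 and Hlf held no E-box, and Nr1d2 and Hlf held no D-box. Per2 had no matched promoter. Among all genes called higher, 6.8% of those with a matched promoter held an E-box.

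Few structural genes of the lung were called. No member was called in the lists for alveolar type 1 epithelium (12 measured), capillary endothelium (16), elastic fibre assembly (22), angiogenic signals (30), NRF2 targets (25), p53 targets (18) or HIF targets (21), where the medians ran from -0.22 to 0.11. Separated downward were 5 type 1, 5 capillary and 6 p53 members, with 0, 1 and 2 upward. In the HIF list 6 were separated upward and 1 downward. Over all tested genes 14.4% were separated downward and 13.6% upward. The summed type 1 level was 8473 to 9305 CPM in RA and 7486 to 8132 CPM in exposed lungs. The capillary level was 5299 to 6173 CPM in RA and 4850 to 5248 CPM in exposed lungs. The endothelial gene Pecam1 read 782, 676 and 843 CPM in RA and 598, 653 and 664 CPM after exposure (edgeR adjusted p = 0.42). Elastin (Eln) had a log2 fold change of 0.20 (SE 0.18) and Vegfa, the endothelial growth factor, of -0.14 (SE 0.11).

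Of 12 alveolar type 2 markers 1 was called lower, although 11 had a log2 fold change below 0, 8 were separated downward (14.4% of all tested genes were) and the list median was -0.33. The called gene was Abca3, the lipid transporter of surfactant granules, at 465, 428 and 468 CPM in RA and 241, 261 and 286 CPM after exposure. The log2 fold change was -0.79 (SE 0.14, edgeR adjusted p = 0.0022), and it held without animal 51. Col12a1, a collagen of fibril surfaces and the only called member of 34 collagen and processing genes, read 68.8, 51.1 and 62.0 CPM against 17.4, 23.5 and 25.6 CPM. Mmp3, a protease of the matrix chosen after its values were seen, read 25.3, 29.6 and 23.5 CPM against 10.1, 12.5 and 10.1 CPM. Tcf21, a transcription factor of lipofibroblasts (chr10:22817281-22820174), rose from 98.8, 100 and 105 CPM to 172, 250 and 215 CPM, a 2.09-fold difference that lost its call without animal 51 (edgeR adjusted p = 0.011 with it and 0.064 without it). The mesothelial gene Msln rose from 91.8, 115 and 88.7 CPM to 214, 215 and 207 CPM, and likewise lost its call without animal 51 (log2 fold change 1.11). Lyve1 (log2 fold change 0.80) was the only called member of 8 lymphatic endothelial markers. Tagln (0.99) was the only one of 14 smooth muscle and pericyte markers, and Tat of 20 glucocorticoid targets. All were called higher, as were 1.25% of all tested genes. Saa3 (1.76) and Tslp (2.02-fold) were called higher among 23 inflammatory cytokine and acute phase genes. That list had a median of -0.22, with 7 members separated downward and 3 upward (14.4% and 13.6% of all tested genes were). Its summed level was 2337 to 2588 CPM in RA and 1584 to 2013 CPM in exposed lungs. None of Lyve1, Tagln, Tat, Saa3 and Tslp was called without animal 51. In that animal Tat, an enzyme of liver, read 21.9 CPM against at most 1.42 CPM in the other lungs. In cholesterol and fatty acid synthesis no member of 29 was called by edgeR, although 19 were separated downward (14.4% of all tested genes were) and the list median was -0.40, and Scd1, a desaturase, read 2588, 2632 and 2480 CPM in RA and 1345, 915 and 1688 CPM after exposure (adjusted p = 0.072).

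Some of these genes were also separated in the other genotypes. Over the 18 P21 lungs of XXM, XYF and XYM mice, whose levels are not part of the XXF fold changes but which shared the estimate of spread in the same fit, the 9 exposed values lay wholly under the 9 RA values for 12 of the 364 genes called lower in XXF lungs (3.3%) and for 0.19% of all tested genes. They lay wholly above for 4 of the 224 called higher (1.79%) and for 0.0613% of all tested genes. Mki67, Ciita and Mmp3 were among the 12 and Tcf21 among the 4. Tcf21 ran from 79.6 to 148 CPM in the 12 RA lungs of the 4 genotypes and from 155 to 272 CPM in the 12 exposed lungs, and Mmp3 from 17.4 to 29.6 CPM and from 10.1 to 16.7 CPM.

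Imprinted growth genes and the genes the study had followed up by quantitative PCR are described next. The study chose the latter with these animals, so they are not independent of them. Its PCR was run on lungs of a separate cohort, and the study reported good correlation of the PCR with its RNA-seq. Of 19 imprinted genes measured, Peg3, Cdkn1c and Dlk1 were called higher, against 1.25% of all tested genes. None of them was called without animal 51, where 0.333% of genes were called higher. Peg3, a paternally expressed regulator of growth and the only called member of the 10 PCR genes, read 71.6, 64.4 and 78.8 CPM in RA and 104, 180 and 248 CPM after exposure (log2 fold change 1.31, SE 0.31, edgeR adjusted p = 0.021). Zbtb16, a transcription factor induced by glucocorticoids, read 6.85, 7.98 and 5.87 CPM against 18.1, 98.2 and 83.6 CPM. It was not called (log2 fold change 3.26, SE 1.12, edgeR adjusted p = 0.11) in the fit, whose spread was estimated over all 24 P21 lungs. Hif3a was separated in the same way (2.33, adjusted p = 0.06). The adjusted p values of Hamp, Tlr7, Nr1d1, Alox15, Hk3, Rsad2 and Ltf ran from 0.068 to 0.99 in the same edgeR test. Ltf was 171 CPM in animal 49 and 8.33 to 23.1 CPM in the other 5 lungs.

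**Figure D3:**
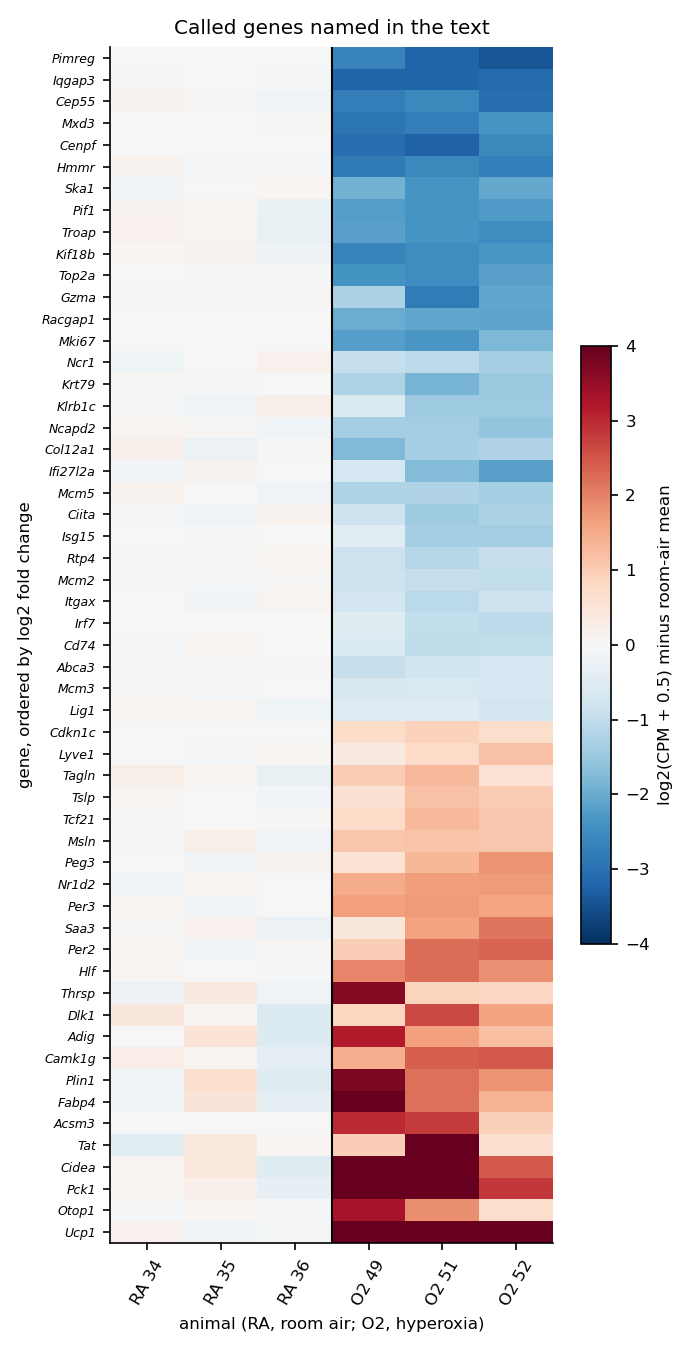
Level of 55 called genes in each of the 6 XXF lungs, as log2(CPM + 0.5) minus the mean of the 3 RA lungs, with genes ordered by log2 fold change and colours ending at 4 log2 units; markers of liver are left out. Mitotic genes at the top are evenly low in animals 49, 51 and 52, whereas fat genes such as Fabp4 and Thrsp near the bottom are highest in animal 49.

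Genes of brown and white fat were among the largest rises and varied widely between the exposed lungs. Of the 10 largest that held without animal 51 (Ucp1, Otop1, Pck1, Cidea, Acsm3, Fabp4, Plin1, Camk1g, Adig and Thrsp), 5 belong to the adipose list. Of its 12 measured members 5 were called higher, against 1.25% of all tested genes, with a list median of 2.33. Otop1, a proton channel, had about 1 count in all RA lungs together and read 4.57, 1.38 and 0.346 CPM after exposure, so that its place in this order depends on RA values at the floor and no fold is given. Ucp1, the uncoupling protein that makes brown fat produce heat (chr8:83290352-83298452), read 0.219, 0.0907 and 0.105 CPM in RA and 208, 66.5 and 17 CPM after exposure. Pck1, an enzyme of glycerol and glucose synthesis, read 1.15, 1.27 and 0.733 CPM against 88.5, 85.2 and 10.5 CPM, and Fabp4, the fatty acid carrier of fat cells and capillaries, read 20.4, 32.1 and 16.8 CPM against 387, 104 and 59.2 CPM. Every exposed lung was above every RA lung in these genes, yet the exposed lungs differed among themselves by several fold.

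The summed adipose level was 68.5, 102 and 55.1 CPM in RA and 1001, 359 and 177 CPM in exposed XXF lungs. It was 347, 521 and 86.9 CPM in the RA lungs of XXM mice, 81.1 to 151 CPM in the XY lungs kept in RA and 39.9 to 112 CPM in the 9 other exposed lungs. Whether fat around the lung entered the samples was not tested. Camk1g, a calcium-dependent kinase and the one gene among the 10 largest rises that was lower in animal 49 than in both other exposed lungs, read 1.10, 0.907 and 0.524 CPM against 3.07, 6.37 and 6.79 CPM.

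Liver genes were high in exposed animal 51. All 10 measured liver markers were called higher with animal 51 and none without it. Albumin (Alb) read 2.25, 2.90 and 2.62 CPM in RA, 2.40 and 6.79 CPM in exposed animals 49 and 52, and 3343 CPM in animal 51. Serpinc1 (antithrombin), Hpx (haemopexin) and Agt (angiotensinogen) had the largest folds among genes that lost their call only when animal 51 was left out. They read 73.0, 153 and 60.2 CPM in animal 51 and at most 1.11, 4.57 and 13.2 CPM in the others. In all 32 genes were called in every fit but the one without animal 51, 3 of them higher and 29 lower.

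Markers of skeletal muscle and squamous epithelium overlapped between the groups. The summed muscle level was 1205, 3757 and 33.6 CPM in RA and 29, 2040 and 966 CPM in exposed lungs, and the summed squamous level was 1599, 5164 and 22.5 CPM in RA and 49.1, 1770 and 732 CPM in exposed lungs, so that animals 36 and 49 were lowest in both. No member of either list was called. Heart markers ran from 190 to 1019 CPM with the highest value in exposed animal 49.

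**Figure D4:**
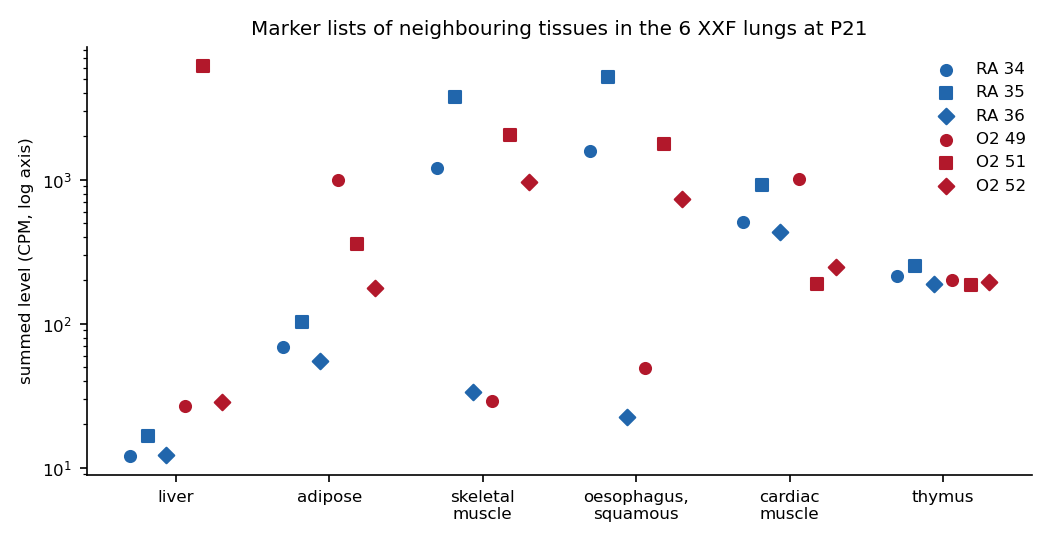
Summed level, in CPM on a log axis, of marker lists of 6 tissues near the lung in each XXF lung at P21 (blue room air, red hyperoxia, one symbol per animal). Liver markers are high in animal 51 alone at 6130 CPM, adipose markers are higher in the 3 exposed lungs, and muscle and squamous markers are low in animals 36 and 49.

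The response of XXF lungs was tested against those of the other genotypes. Against the mean response of XXM, XYF and XYM mice, 11 genes (0.0613% of those tested) were called, all with a larger rise in XXF, and against the XXM response 20 genes (0.112%) were. The 3 smallest p-values were those of Pck1, Fabp4 and Cidea in the former and of Ucp1, Cidea and Pck1 in the latter, all on the adipose list. Of the 11 genes, 4 are on the adipose list, and of the 20, 7 are. In RA XXM lungs Ucp1 was already at 52.6, 147 and 5.40 CPM, and in exposed XXM lungs at 0 to 0.498 CPM, so that the 2 responses ran in opposite directions. Leaving out any 1 of RA animals 34, 35 and 36 left 0 of the 11 called by edgeR (1388 genes had an unadjusted p under 0.05, at any fold, with all animals).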

How the data were processed

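RNA-seq of whole lung was done by the authors, who used a stranded kit after oligo-dT enrichment and 2 × 76 bp reads; per the labels HISAT2 and featureCounts were run on mm10, while for the annotation release and strand setting the sources used here give nothing. The deposited values are raw counts per gene (52550 genes, 48 animals), used as deposited. The count test was edgeR 4.0.16 in R 4.3.3 (TMM scaling, low genes dropped with filterByExpr, a mean for each group, quasi-likelihood F test) on the 24 P21 animals, with 16 residual degrees of freedom; P5 animals were fitted separately. Levels are TMM-scaled CPM, and are not corrected for length. A gene was called at adjusted p under 0.05 and 1.5-fold. Depth at P21 was 6042939 to 31348391 counts, and at low counts this limits precision. Gene positions are from GENCODE vM21, promoters from RefSeq (GRCm38.p6). The fit was tested on simulated data. Replicates were not duplicates (chi-square per degree of freedom of 4.67 or more in every pair).

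The members, gene lists and tests were chosen with earlier results of these data known. Genes were named by rule: called genes with separated groups, a mean of at least 2 CPM in the higher group and called without animal 51 (10 largest in each direction), up to 4 called members per list by level, the PCR genes, the 3 smallest p-values in each test between genotypes, and 3 genes resting on animal 51. Others are said to be chosen after their values were seen. Alternatives were RLE scaling, DESeq2 1.42.0, no filter, no fold minimum, unadjusted p, the 6 animals alone, counts thinned to 6042939, leaving out each XXF animal and, added after the data were seen, leaving out animals 34 and 51 together and XY controls.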

Additional observations from a re-analysis of the deposited data

Results flagged for a closer look

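The response of XXF lungs differed from that of other genotypes by the test of the difference itself for 11 genes against the mean of the other 3 genotypes and for 20 genes against XXM. Against the mean of the other genotypes the log2 difference was 8.67 for Pck1, 4.61 for Fabp4 and 6.59 for Cidea. Against XXM it was 16.93 for Ucp1, 9.20 for Cidea and 10.75 for Pck1, where exposed XXM lungs read 0 to 0.498 CPM for Ucp1 and 0 to 2.54 CPM for Pck1, so that the size of the fitted Ucp1 difference depends on very few counts. All are on the adipose list, whose members also differed between the animals of one group, and the part of fat in the samples was not tested. Pck1 read 85.2 CPM in animal 51, the lung high in liver markers, and 88.5 CPM in animal 49. Ucp1, at 66.5 against 208 CPM, and Fabp4, at 104 against 387 CPM, were lower in animal 51 than in animal 49. Pck1 stayed called in both tests without animal 51. The part of liver RNA in its level was not tested.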

How the results depend on the processing

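No paired analysis was possible because the groups share no animal number. In exposed XXF lungs 224 genes were called higher and 364 lower. The higher count was 379 without the count filter, 120 after thinning and 689 at an unadjusted p, and the lower count 230 after thinning and 865 at an unadjusted p. Here and below, counts at an unadjusted p keep the 1.5-fold minimum. With XY lungs in room air as controls both counts were 103, and without animals 34 and 51 together they were 8 and 59. Leaving out 1 XXF animal gave 34 (without 34) to 266 (without 49) higher and 152 (without 51) to 385 (without 49) lower. The 11 genes that differed from the other genotypes became 65 with DESeq2, 44 without the filter, 6 after thinning, 868 at an unadjusted p, 0 without animals 34 and 51 together and 0 to 65 without 1 animal. The 20 that differed from XXM became 73, 55, 15, 1048 and 8 in the same order, and 6 to 47 without 1 animal. Of 60 mitotic genes called lower, 0 were called with XY controls, 29 without animals 34 and 51, and 50 to 58 without 1 animal. The 18 replication genes became 0 with XY controls, 9 after thinning, 0 without animals 34 and 51, and 8 to 15 without 1 animal. The 9 interferon genes became 17 with DESeq2, 23 with XY controls, 5 after thinning, 20 at an unadjusted p, 1 without animals 34 and 51, and 1 to 15 without 1 animal. The 4 clock genes called higher became 8 with the 6 XXF animals alone, 7 without the filter, 0 with XY controls, 8 at an unadjusted p, 0 without animals 34 and 51, and 0 to 4 without 1 animal. The causes were not tested. Among 120 named genes, none that was called changed direction under RLE scaling, DESeq2, the 6 animals alone, thinning or leaving out 1 animal; of 1194 values, 147 lost and 12 gained the call. With 3 lungs a group, genes of few counts are measured with little precision.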
